A study of Mus musculus with 33 samples.

Results

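Fibronectin and 9 integrin subunits were followed across mouse mammary tumours by RNA-seq. The 10 genes were Fn1, Itga5, Itgav, Itgb1, Itgb3, Itga6, Itgb4, Itga2, Itga3 and Itgb6, and each matched 1 row by symbol among the 54532 rows of the count table. They were chosen by name with their levels across the groups already known, so levels, fold changes and calls of these genes describe them and support nothing further, and no p-value of a member's fold change is given. Counts of members past a threshold stand beside the share of all tested genes past it.

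Tumours in the titled set M20_7 (4 libraries) had received RP-6306, an inhibitor of the CDK1-inhibiting kinase PKMYT1, and were set against VEH_7 (3 libraries), which had received vehicle. MYT (11 libraries) had also received RP-6306 and was set against VEH (4 libraries), given vehicle. SPON (5 libraries) and WT (5 libraries) were untreated. All labels give the genotype as FVB and the tissue as mammary tumour, and the protocols describe transplanted tumours and a dose of 20 mg/kg, stated once as daily and once with a twice-daily abbreviation. The design text names cyclin E transgenic and PyMT tumours, but the labels do not say which tumours are which, what promoter drives the transgene, how long each group was treated, or what _7, SPON and WT stand for, and no age is given. A further library is labelled vehicle in its title and RP-6306 in its treatment field, and it entered no group. Nothing says that libraries of a group came from separate mice, so the spread given may be technical in part.

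Fibronectin is a large secreted glycoprotein that cells assemble into fibrils. Integrins are membrane receptors made of an alpha and a beta subunit: Itga5 with Itgb1 is the main fibronectin receptor, Itgav pairs with Itgb1, Itgb3 or Itgb6 to bind ligands that carry the RGD motif, Itga6 with Itgb4 or Itgb1 and Itga3 with Itgb1 bind laminins of the basement membrane, and Itga2 with Itgb1 binds collagen. In the mammary gland, laminin receptors anchor epithelial cells to the basement membrane, and fibronectin and its receptor are known for their high level in stroma and in mesenchymal cells.

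Libraries held 13701115 to 20105407 counts in MYT, VEH, SPON and WT and 26517748 to 34637096 in M20_7 and VEH_7. The label mammary tumour was checked against 10 epithelial markers: their summed level was 4136 to 10274 CPM (read counts scaled to library size) in MYT, 610 to 1841 in VEH, 4562 to 10798 in SPON and 3904 to 5203 in WT. In the other set it was 30.8 to 64.9 CPM in M20_7 and 21.6 to 86.9 CPM in VEH_7, so the defining markers of epithelium were low in these libraries, although no listed marker was at 0 through a whole group. Epcam, the epithelial adhesion molecule, had a median of 4.40 CPM in M20_7 and 4.31 CPM in VEH_7, against 1425 CPM in MYT, 18.1 CPM in VEH, 1357 CPM in SPON and 941 CPM in WT.

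Levels are given as CPM with scaling factors over the 32 grouped libraries. Fn1, the ligand, had 19478, 10269, 10298 and 15514 CPM in the M20_7 libraries and 11594, 26080 and 15841 CPM in the VEH_7 libraries. In MYT its lowest, median and highest levels were 558, 1157 and 2173 CPM, against 6645, 14411, 18053 and 10072 CPM in VEH. In SPON it had 2756, 267, 167, 5333 and 379 CPM, against 55.2, 59.8, 97.2, 123 and 1070 CPM in WT. Every library of M20_7, VEH_7 and VEH therefore lay above every library of the other 3 groups, and within SPON and WT single libraries stood well above the rest. The same order of these groups, without overlap, held for Itga5, Itgav and Itgb1. The share of all genes separated in this way was not counted. In 1 VEH_7 library Fn1 alone took 2.50% of all counts, and its median share was 0.118% in MYT, 1.17% in VEH and 0.0103% in WT.

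Itga5, the alpha subunit of the fibronectin receptor, had 589, 463, 480 and 527 CPM in M20_7 and 515, 603 and 486 CPM in VEH_7. Its lowest, median and highest levels in MYT were 39.4, 70.4 and 133 CPM, against 1231, 1208, 649 and 534 CPM in VEH. The SPON libraries had 171, 43.6, 25.8, 89.2 and 53.0 CPM, against 10.3, 15.9, 18.8, 13.1 and 20.4 CPM in WT. WT was the lowest group, with no overlap with SPON, and MYT and SPON overlapped. The highest group mean was 57.8 times the lowest for Itga5 and 63.5 times for Fn1, against 2.67 to 16.7 times for the other members except Itgb6.

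Of the 10 genes, 6 had an entry in the RefSeq promoter table (GRCm38.p6): Itga5, Itgav, Itgb1, Itga2, Itga3 and Itgb6. The promoters of Itga5 and Itgb6 are shown because these 2 subunits had the widest spread between groups of those 6 and were high in opposite groups. The Itga5 window is chr15:103366792-103367041 on the minus strand, 250 bases upstream of the RefSeq start, written 5′ to 3′ with GC boxes (GGGCGG on either strand) in capitals. The Itgb6 window is chr2:60722644-60722853, also on the minus strand, and is limited to the 210 bases upstream of the outermost annotated exon.

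Itga5: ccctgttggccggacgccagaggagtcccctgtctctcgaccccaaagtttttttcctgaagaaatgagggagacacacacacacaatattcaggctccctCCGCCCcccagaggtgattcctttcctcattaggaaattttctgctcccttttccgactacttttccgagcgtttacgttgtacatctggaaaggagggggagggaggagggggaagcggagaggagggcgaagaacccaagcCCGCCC
Itgb6: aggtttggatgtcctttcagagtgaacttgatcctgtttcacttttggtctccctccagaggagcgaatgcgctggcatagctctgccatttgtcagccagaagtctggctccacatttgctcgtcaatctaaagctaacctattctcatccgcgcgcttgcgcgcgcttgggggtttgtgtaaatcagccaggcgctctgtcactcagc

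The 250 bases before the Itga5 start held 55.6% G and C and 2 GC boxes, and those before the Itgb6 start held 52% and no GC box, against a median of 52.4% over the 32851 windows of the table. A GC box was in 32.7% of these windows. The AP-1 site TGANTCA was in 6.75% of windows, the E-box CACCTG, the letters bound by ZEB and Snail factors, in 17.2%, and the TATA box TATAAA in 12.4%, each searched on both strands. The Itga5 and Itgb6 windows held none of these other 3 motifs. Of the other 4 windows, that of Itga3 held 3 GC boxes and 1 E-box, that of Itgb1 held 1 GC box, and those of Itgav and Itga2 held none of the 4 motifs. Such matches describe letters and not bound sites.

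Itgb1, the beta subunit shared by most of these receptors, had 1282, 885, 925 and 1059 CPM in M20_7 and 1004, 1282 and 960.0 CPM in VEH_7. It spanned 383 to 772 CPM in MYT with a median of 622, against 1150.5, 1466, 1077 and 979.9 CPM in VEH. In SPON it had 695, 437, 552, 809.9 and 362 CPM, against 377, 289, 411, 418 and 389 CPM in WT. Its group means differed by 3.10 times at most, the second smallest spread of the 10 genes.

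Itgav, the alpha subunit of RGD receptors, had 409, 329, 393 and 393 CPM in M20_7, against 416, 493 and 430 CPM in VEH_7, the only member whose libraries did not overlap between these 2 groups. It had 119, 152 and 181 CPM as lowest, median and highest level in MYT, against 272, 375, 317 and 291 CPM in VEH. It had 121, 116, 56.7, 148 and 61.5 CPM in SPON, against 98.8, 84.9, 118, 188 and 92.9 CPM in WT. Itgav was thus high where Fn1 was high, over a narrower range.

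Itgb3, the Itgav partner that also pairs with Itga2b on platelets, followed another order. It had 55.9, 35.3, 38.9 and 41.3 CPM in M20_7 and 52.9, 71.4 and 33.8 CPM in VEH_7. MYT spanned 28.5 to 161 CPM with a median of 97.1, against 138, 182, 192 and 130 CPM in VEH. SPON had 124, 52.4, 10.3, 196 and 18.1 CPM, against 33.1, 47.3, 193, 138 and 63.9 CPM in WT. All neighbouring groups overlapped in the order of its means, as they did for Itga6 and Itga2. The summed level of 6 platelet and megakaryocyte markers was 6.50 to 26.1 CPM in MYT and 58.6 to 169 CPM in VEH. Their part in the Itgb3 level was not tested.

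Itgb6, the Itgav partner typical of epithelium, was low in the 3 groups with high Fn1 and higher in the others. Reads for it were nearly absent from the set titled _7, with 0.227, 0.0288, 0.287 and 0.0310 CPM in M20_7 and 0.227, 0 and 0.0345 CPM in VEH_7, where the counts were 6, 0 and 1. It had 3.32, 5.05 and 7.81 CPM as lowest, median and highest level in MYT, against 1.04, 0.505, 0.138 and 0 CPM in VEH, from 16, 7, 2 and 0 counts. It had 8.40, 8.52, 2.24, 14.2 and 1.82 CPM in SPON, against 8.27, 11.8, 13.7, 13.7 and 9.35 CPM in WT. Within SPON, replicate 4 had the highest level of both Itgb6 and Fn1. Every library of MYT, SPON and WT lay above every library of the other 3 groups, the reverse of Fn1, Itga5, Itgav and Itgb1. The share of all genes with this order was not counted either.

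Itga6, the laminin-binding partner of Itgb4, had 170.5, 102, 118 and 164 CPM in M20_7 and 135, 167 and 133 CPM in VEH_7. It had 315, 357 and 503 CPM as lowest, median and highest level in MYT, against 222, 176, 90.1 and 116 CPM in VEH. It had 224, 184, 151, 356 and 213 CPM in SPON, against 286, 311, 326, 415 and 506 CPM in WT. With 2.67 times between its highest and lowest group means, Itga6 varied least of the 10 genes.

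Itgb4, the hemidesmosome subunit, had 69.7, 13.7, 32.9 and 49.8 CPM in M20_7 and 47.4, 32.4 and 13.7 CPM in VEH_7. It had 175, 359 and 498 CPM as lowest, median and highest level in MYT, against 128, 219, 220 and 263 CPM in VEH. It had 441, 258, 292, 394 and 144 CPM in SPON, against 1001, 192, 1025, 248 and 139 CPM in WT. WT was split, with 2 of 5 libraries several times above the others, and the set titled _7 lay below all other libraries.

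Itga3, which binds laminin with Itgb1, had 81.3, 61.2, 70.2 and 80.9 CPM in M20_7 and 65.2, 65.2 and 67.0 CPM in VEH_7. It had 138, 403 and 880 CPM as lowest, median and highest level in MYT, against 437, 537, 234 and 363 CPM in VEH. SPON had 502, 167, 83.1, 332 and 96.9 CPM, against 83.9, 107, 99.5, 122 and 199 CPM in WT. VEH was thus high for Itga3 as well as for Fn1 and Itga5, a pairing that VEH_7 did not show.

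Itga2, the collagen-binding subunit, was low throughout. It had 13.3, 11.7, 9.85 and 13.5 CPM in M20_7 and 13.6, 13.1 and 15.6 CPM in VEH_7. MYT spanned 12.9 to 115 CPM with a median of 38.2, against 36.2, 46.7, 29.0 and 28.0 CPM in VEH. SPON had 20.6, 7.02, 0.952, 62.4 and 2.45 CPM, against 6.78, 12.0, 10.5, 17.2 and 8.96 CPM in WT. Of the 50 neighbouring pairs in the orders of group means of all 10 genes, 41 overlapped in their sample ranges. This describes the ranges, and whether neighbours differ was not tested.

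**Figure D1:**
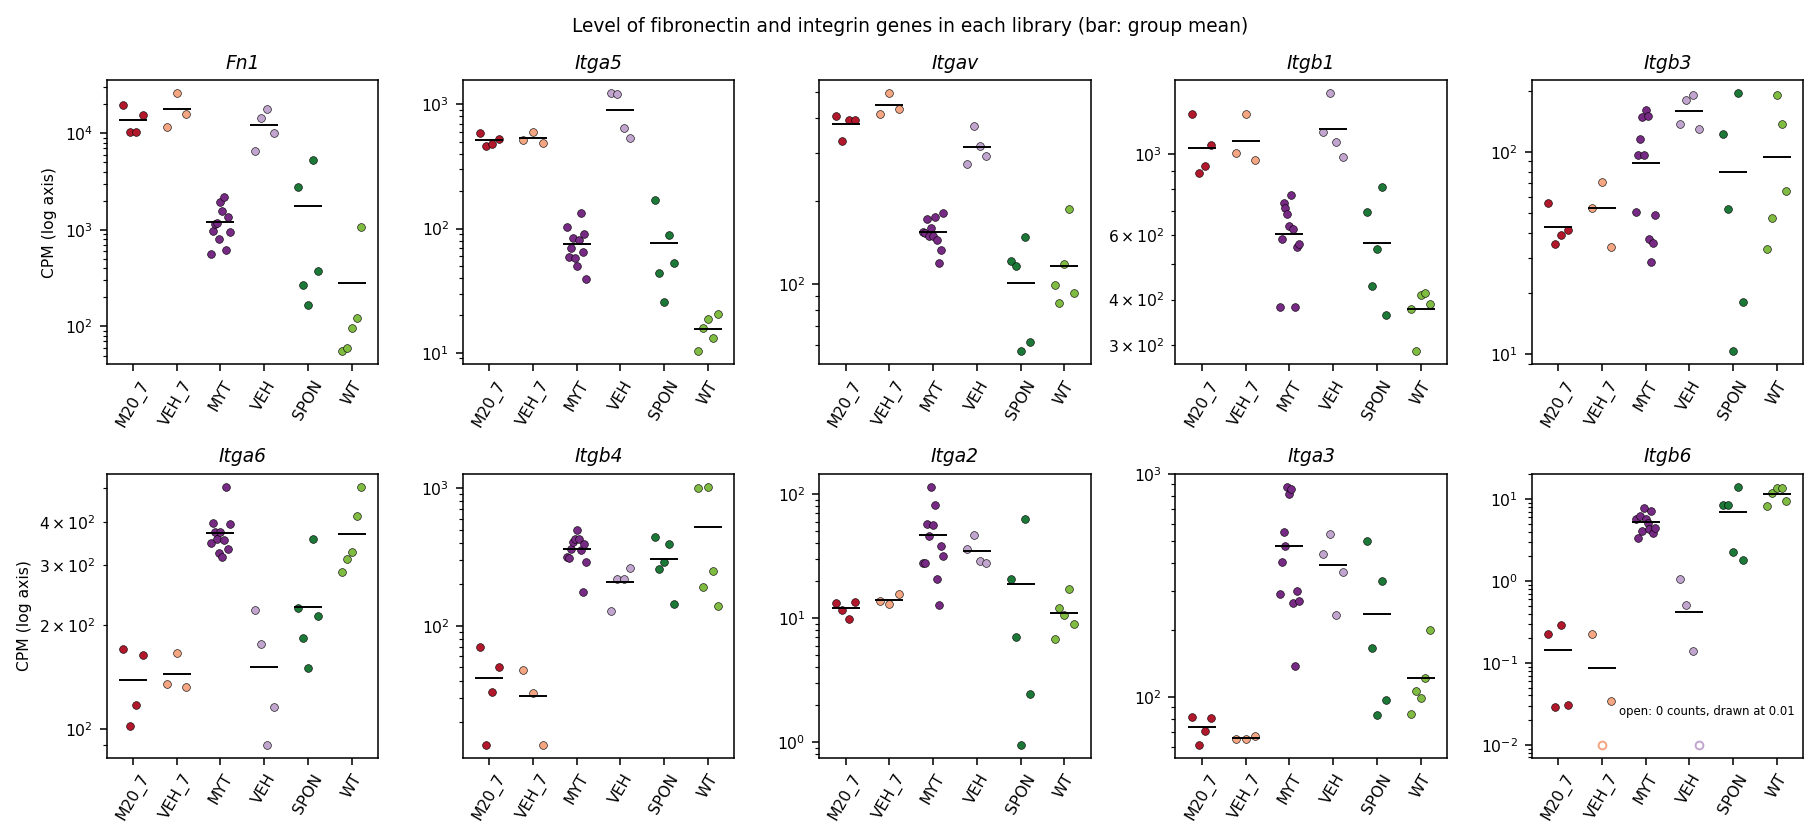
Level of each gene in CPM on a log axis, 1 point a library, with a bar at the mean of each of the 6 groups; open points stand for 0 counts. For Fn1 every M20_7, VEH_7 and VEH library lies above every library of MYT, SPON and WT, and for Itgb6 the order is reversed.

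To compare genes with each other, levels were divided by the length of each gene's joined exons in kilobases. On this scale Itga5 made up 61.5 ± 1.46% of the summed level of the 5 alpha subunits in M20_7 (SD, n = 4) and 60.3 ± 1.21% in VEH_7 (n = 3). Its share was 10.4 ± 5.12% in MYT (n = 11), against 59.5 ± 6.52% in VEH (n = 4). It was 15.7 ± 4.15% in SPON and 4.15 ± 1.01% in WT (n = 5 each). Among these 5, Itga5 therefore led in the 3 groups with high Fn1 and was minor in the others. Other alpha subunit genes, such as Itga7, Itga8 and Itga11, are not part of the sum.

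Which of the 5 alpha subunits led differed among those other groups. Itga3 held 48.4 ± 14.1% in MYT, against 23.0 ± 4.74% in VEH, and 40.5 ± 9.38% in SPON, against 27.1 ± 3.84% in WT. Itga6 held 27.9 ± 10.6% in MYT, against 5.48 ± 0.869% in VEH, and 30.8 ± 10.4% in SPON, against 52.5 ± 1.20% in WT. The Itga6 share in WT ranged from 51.2 to 54.1% over its 5 libraries although its level ranged from 286 to 506 CPM.

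Among the 4 beta subunits Itgb1 led in the mean of every group. It held 95.2 ± 0.966% in M20_7 and 95.3 ± 1.45% in VEH_7, then 69.1 ± 4.18% in MYT, against 83.3 ± 3.46% in VEH, and 71.8 ± 5.13% in SPON, against 55.4 ± 17.5% in WT. Itgb4 held 24.0 ± 3.44% in MYT, against 8.78 ± 2.96% in VEH. In the set titled _7 both Itgb4 and Itgb3 were minor, Itgb4 with 2.10 ± 0.923% in M20_7, against 1.59 ± 0.905% in VEH_7, and Itgb3 with 2.71 ± 0.123% in M20_7, against 3.15 ± 0.690% in VEH_7. In WT the Itgb4 share ranged from 15.5 to 59.0% over single libraries. Itgb6 stayed under 2% of the summed beta level in every library, with a highest value of 1.54% in WT. Other beta subunit genes, such as Itgb5 and Itgb8, are not part of the sum.

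**Figure D2:**
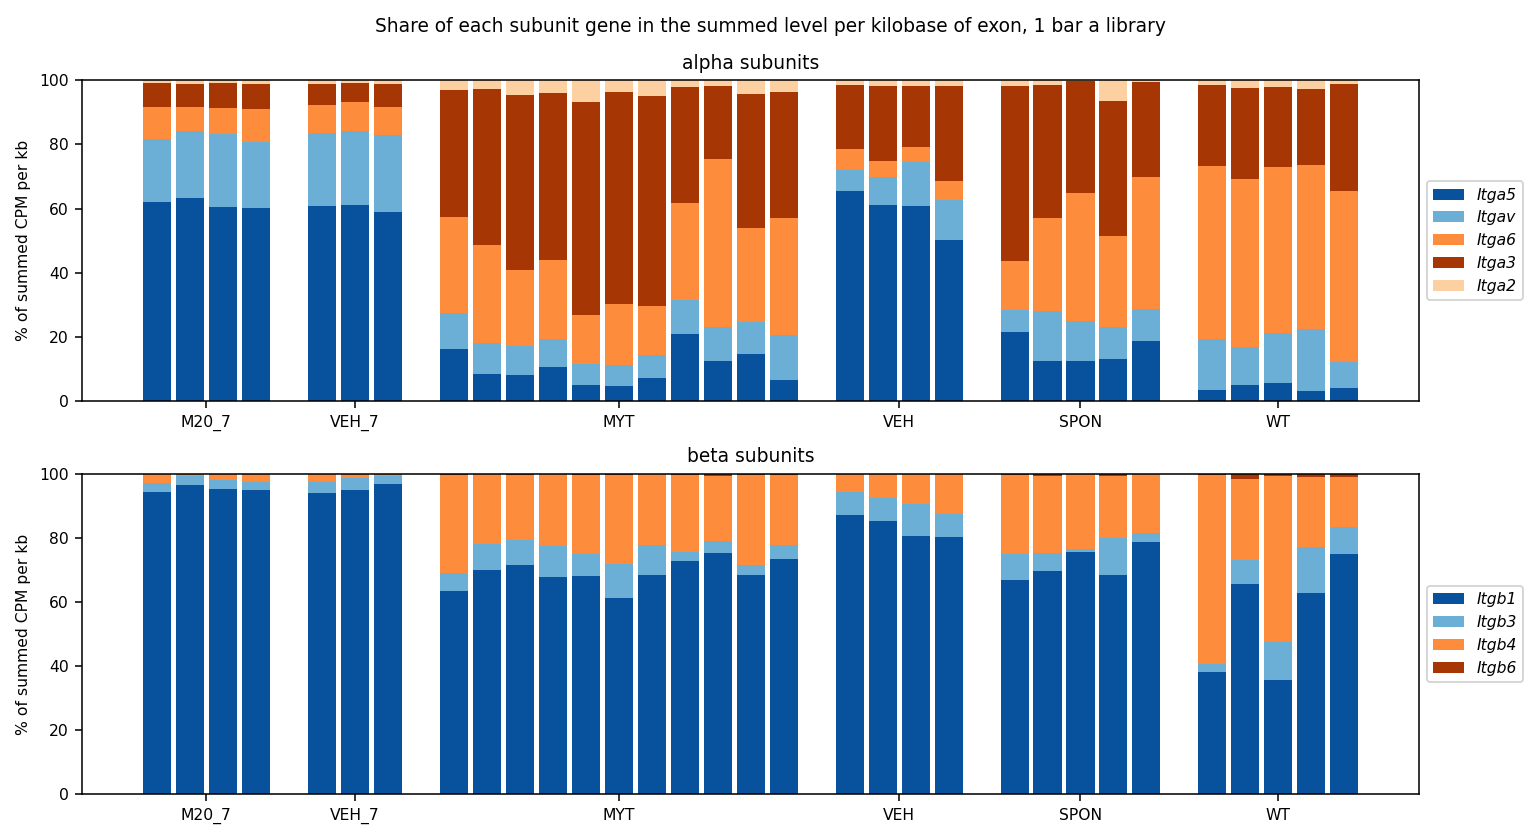
Share of each gene in the summed CPM per kilobase of the 5 alpha subunits (top) and 4 beta subunits (bottom), 1 bar a library in % of the sum. Itga5 makes up 61.5 and 60.3% of the alpha sum in the means of M20_7 and VEH_7 and 10.4% in MYT, and Itgb1 makes up 95.2% of the beta sum in M20_7.

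MYT was compared with VEH to ask how these genes stood in RP-6306 tumours against vehicle tumours without the suffix. Fn1 had a log2 fold change of -3.34 ± 0.30 (SE) and Itga5 of -3.57 ± 0.26, levels in MYT of 0.0986 and 0.0839 times those in VEH. Itgav (-1.03 ± 0.10) and Itgb1 (-0.95 ± 0.17) were at 0.491 and 0.517 times. Itgb6 was 12.1 times higher (3.59 ± 0.53), Itga6 2.46 times (1.30 ± 0.19) and Itgb4 1.74 times (0.80 ± 0.22). Fn1, Itga5, Itgav and Itgb1 were thus lower in MYT, and Itga6, Itgb4 and Itgb6 were higher. Itgb3 (-0.86 ± 0.39), Itga2 (0.42 ± 0.42) and the laminin-binding Itga3 (0.28 ± 0.40) did not pass the test. The Itgb4 call was lost in 1 fit over the 32 grouped libraries, where its log2 fold change was 0.77.

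In this comparison edgeR called 9531 of 16021 genes at an adjusted p under 0.05, 30.5% of all tested genes higher in MYT and 29.0% lower. Of the 10 members, 3 were called higher and 4 lower, and the median log2 fold change of the members was -0.29, against 0.04 over all tested genes. For 6 members (Fn1, Itga5, Itgav, Itgb1, Itga6 and Itgb6) the MYT and VEH libraries did not overlap, which held for 35.1% of all tested genes. Itgb3 passed the test on all libraries by DESeq2 (-0.89) and limma voom (-1.09), and by edgeR when MYT replicate 4, 6 or 7 was left out (-0.96, -0.98 and -0.96). The Itgb6 value rested in part on 1 vehicle library and was 4.58 without VEH replicate 1.

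Several lists of cell type markers also differed in this comparison. All 10 epithelial markers were called higher in MYT (median log2 fold change 4.13), and 8 of 9 fibroblast markers (-2.77), 8 of 8 endothelial markers (-1.42) and 7 of 7 macrophage markers (-1.89) were called lower. Of the 7 tested basal and myoepithelial markers, 2 were higher and 3 lower, 3 of 4 tested platelet markers were lower, and none of 5 tested T cell markers was called. The summed fibroblast level was 801 to 4350 CPM in MYT, against 9872 to 16839 CPM in VEH, and Vim, a mesenchymal filament protein, was at a median of 766 CPM in MYT, against 4818 CPM in VEH. In bulk RNA, fewer cells of a type and less RNA of a gene per cell cannot be told apart. The part of cell makeup in the member values was not tested.

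**Figure D3:**
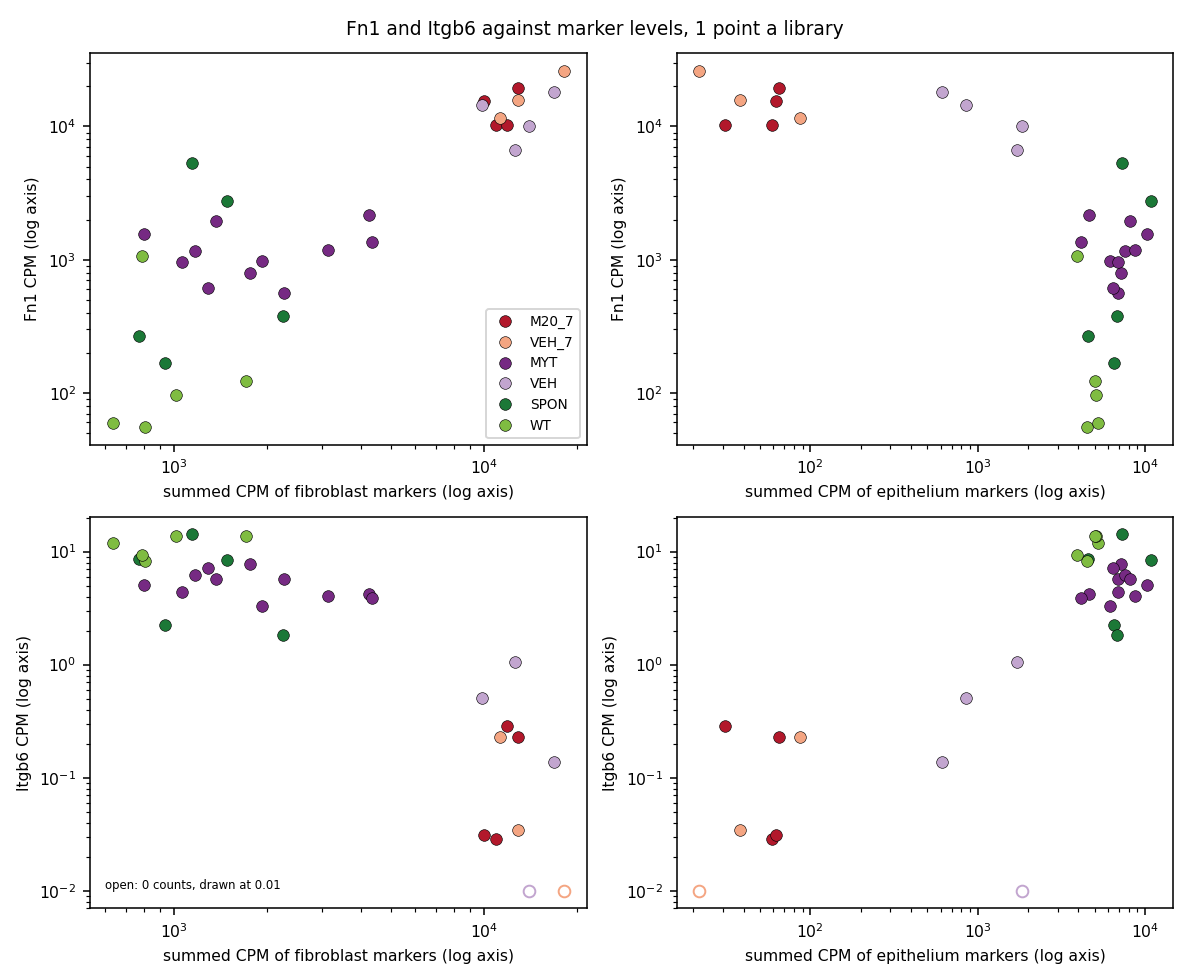
CPM of Fn1 (top) and Itgb6 (bottom) against the summed CPM of fibroblast markers (left) and epithelial markers (right), 1 point a library on log axes; open points stand for 0 counts. MYT, SPON and WT libraries lie at fibroblast sums of 633 to 4350 CPM, and M20_7, VEH_7 and VEH at 9872 to 18130 CPM.

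M20_7 was compared with VEH_7 to ask the same in the set titled _7. No member passed the test, and no gene did: edgeR called 0 of 16699 genes (0%), with 1033 at an unadjusted p under 0.05, and DESeq2 called 55 genes and limma voom 0, none of them members. The median log2 fold change of the 9 tested members was -0.06, against 0.01 over all tested genes. Itgb6 was too low to be tested. Ranges did not overlap for 1 member, Itgav, and for 6.67% of all tested genes.

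The member values in this set, none of which passed the test, lay between -0.36 and 0.41. Fn1 was at -0.36 ± 0.30 (SE, log2), Itga5 at -0.05 ± 0.12, Itgav at -0.23 ± 0.11, Itgb1 at -0.06 ± 0.16 and Itgb3 at -0.30 ± 0.24. Itga6 was at -0.06 ± 0.18, Itgb4 at 0.41 ± 0.51, Itga2 at -0.22 ± 0.15 and Itga3 at 0.16 ± 0.12. Itgb4, the gene with the largest of these values, was also the one with the widest error. Missing the threshold does not show that the levels were equal.

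SPON was compared with WT, the untreated tumours. Itga5 was 4.93 times higher in SPON (log2 fold change 2.30 ± 0.47) and was the 1 member called. Fn1 had a larger value with a wider error (2.67 ± 1.17), and Itgb1 (0.62 ± 0.26), Itga3 (0.97 ± 0.49) and Itga2 (0.79 ± 0.86) were also above 0. Itga6 (-0.70 ± 0.28), Itgb4 (-0.75 ± 0.57), Itgb6 (-0.67 ± 0.52), Itgb3 (-0.22 ± 0.74) and Itgav (-0.19 ± 0.32) were below 0.

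Here 4.52% of 15558 genes were called higher in SPON and 3.86% lower, and ranges did not overlap for 9.81% of them and for 1 member, Itga5. The median log2 fold change was 0.21 over the members and 0.07 over all tested genes. Single libraries weighed on the values: Fn1 was 1.65 without SPON replicate 4 and 4.44, past the test, without WT replicate 5, which alone among WT had 1070 CPM. Without SPON replicate 4, Itga6 passed the test at -0.95, Itga2 turned to -0.51 and Itgb3 was at -0.89. The Itga5 call was lost without WT replicate 4, where its log2 fold change was 2.21. Of the marker lists, 1 of 10 epithelial, 1 of 9 fibroblast and 1 of 7 macrophage markers were called higher in SPON, with 1 of 8 basal markers higher and 1 lower.

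**Figure D4:**
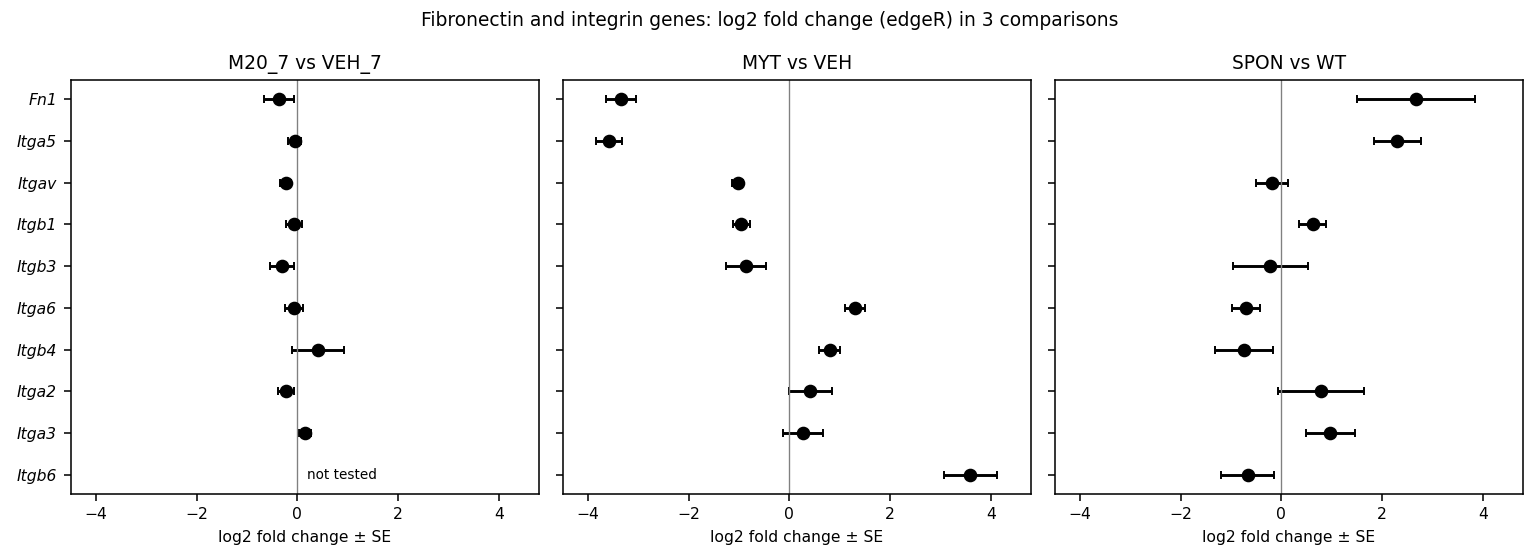
Log2 fold change with its standard error (bars) from edgeR for each gene in M20_7 against VEH_7, MYT against VEH and SPON against WT. Values in M20_7 against VEH_7 lie between -0.36 and 0.41, and those in MYT against VEH between -3.57 and 3.59; Itgb6 could not be tested in the first.

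The difference between the 2 RP-6306 comparisons was tested itself, as the log2 fold change in MYT against VEH minus that in M20_7 against VEH_7. It was -2.97 ± 0.54 (SE) for Fn1, -3.51 ± 0.42 for Itga5, -0.79 ± 0.17 for Itgav and -0.88 ± 0.27 for Itgb1, all called lower, and 1.37 ± 0.29 for Itga6, called higher. The Fn1 and Itgav calls were lost in 1 fit over the 32 grouped libraries, where their differences were -3.01 and -0.82. Itgb3 (-0.55 ± 0.62), Itgb4 (0.39 ± 0.51), Itga2 (0.65 ± 0.60), Itga3 (0.13 ± 0.57) and Itgb6 (2.90 ± 1.25) did not pass. The counts of 1 higher and 4 lower stand beside 17.0% of 17095 genes called higher and 18.9% called lower, and the members' median was -0.21, against 0.01 over all tested genes. The Itgb6 difference was 0.94 without VEH_7 replicate 1, and it passed the test by DESeq2 (2.88) and, by edgeR, without VEH_7 replicate 2 (3.48), M20_7 replicate 3 (3.51) or VEH replicate 1 (3.87). The sets also differ in depth and in their vehicle tumours, for which Epcam and Itga3 are given above, and these differences cannot be told apart from any other between the sets.

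Ligands and partners of these receptors were taken from lists written with earlier results of these data known. In MYT against VEH all 10 collagen genes were called lower (median log2 fold change -2.62), among them Col6a3 (-2.84 ± 0.21, edgeR adjusted p = 1.8e-08) and Col5a1 (-3.25 ± 0.31). Of 15 other matrix ligands, 8 were lower, such as the microfibril protein Fbn1 (-3.12 ± 0.25), and 2 were higher, Npnt, a basement membrane ligand of Itga8, and the RGD protein Mfge8 (2.62 ± 0.31). The 10 tested laminin chains were split, 3 higher and 3 lower: Lama3 (4.74 ± 0.48) and Lama5 (1.66 ± 0.15) were among the higher ones, and Lamb1 (-1.51 ± 0.18), Lamb2 and Lama4 were lower. Both Lama3 and Lama5 encode alpha chains of basement membrane laminins that Itga3 and Itga6 receptors bind.

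Other receptor subunits and their inner partners were mostly lower in MYT. Of 10 further integrin subunits 6 were lower, with Itga11, a collagen receptor of fibroblasts (-3.74 ± 0.29, edgeR adjusted p = 2.33e-08), and Itga7 (-3.36 ± 0.31) as examples, and 2 higher, Itga8 (2.88 ± 0.40) and Itgb8 (0.90 ± 0.25). Of 7 leukocyte subunits 3 were lower, among them Itgam (-1.71 ± 0.19) and Itgb2 (-1.48 ± 0.18), and Itgax was higher (1.32 ± 0.21). Of 24 adaptors and focal adhesion proteins, which tie integrins to actin, 19 were lower (list median -0.96), such as Parvb (-4.04 ± 0.26), Vcl (-2.62 ± 0.23) and Tns1 (-2.56 ± 0.21). The 2 that were higher were Actn4 and Fermt1 (4.09 ± 0.57), the kindlin of epithelium.

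Of 4 hemidesmosome partners of Itgb4, Col17a1 was higher (2.05 ± 0.60, edgeR adjusted p = 0.00735), Plec (-1.48 ± 0.14) and Dst (-1.01 ± 0.19) were lower, and the tetraspanin Cd151 did not pass. Of 6 fibronectin partners, the urokinase gene Plau (-2.30 ± 0.22), its receptor gene Plaur (-1.31 ± 0.21) and the syndecan Sdc2 (-3.90 ± 0.61) were lower and the syndecan Sdc4 higher. These counts stand beside the 30.5% and 29.0% of all tested genes called higher and lower. In M20_7 against VEH_7 no gene of these lists was called.

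**Figure D5:**
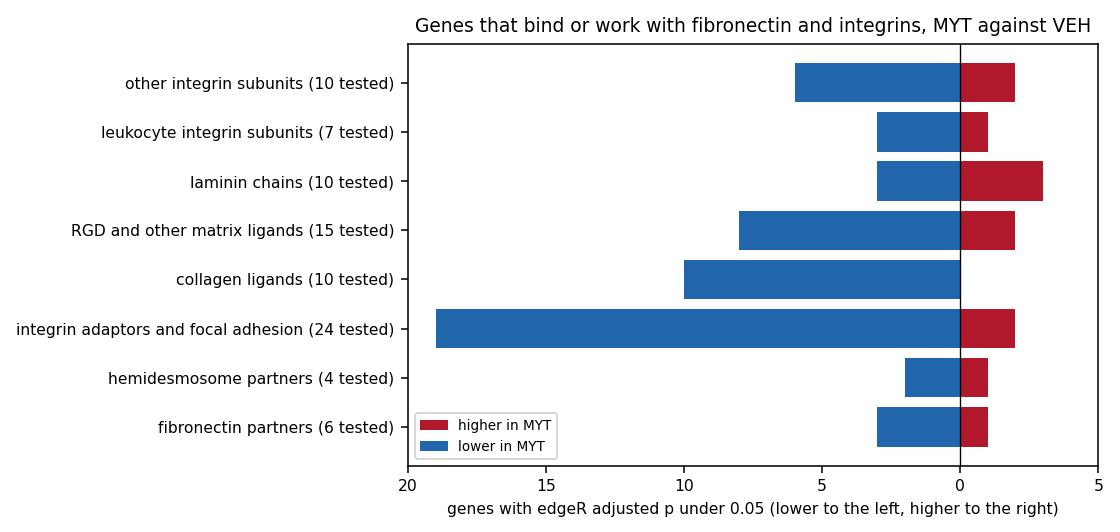
Number of genes of each list called by edgeR in MYT against VEH, higher to the right of 0 and lower to the left, with the number tested in brackets. All 10 collagen genes and 19 of 24 adaptors are called lower, and the 10 laminin chains split into 3 higher and 3 lower.

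In SPON against WT the same lists gave fewer calls than in MYT against VEH. They stand beside 4.52% of all tested genes called higher and 3.86% called lower. Adaptors had 3 of 24 higher, the focal adhesion kinase Ptk2 (0.78 ± 0.19), Tns3 (0.86 ± 0.19) and Parvb (1.25 ± 0.35). Of the matrix ligands Tgfb1 was higher (1.77 ± 0.42, edgeR adjusted p = 0.0272), and Tgfb3 (-2.09 ± 0.39) and Npnt (-1.52 ± 0.40) lower. Of the laminins Lama4 was higher (0.90 ± 0.25), and Lama1 (-3.75 ± 0.83) and Lamb2 (-1.15 ± 0.31) lower. Itga9 (2.24 ± 0.46), Itgb2 (1.23 ± 0.34) and Col4a2 (1.49 ± 0.40) were the other genes called, all higher, and no hemidesmosome or fibronectin partner was called.

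The difference between the sets showed list counts like those of MYT against VEH, with which it shares those libraries. There 8 of 10 collagens and 17 of 24 adaptors were lower, 2 adaptors higher, and 3 laminin chains higher and 1 lower. Lama3 differed by 4.44 ± 0.59 and Parvb by -3.96 ± 0.43 (edgeR adjusted p = 9.9e-07). Of the other integrin subunits 2 were higher and 5 lower, of the matrix ligands 2 higher and 6 lower, of leukocyte subunits 1 higher and 3 lower. Col17a1 (2.42 ± 0.85) was higher and 2 other hemidesmosome partners lower, and of the fibronectin partners 1 was higher and 3 lower. Over all tested genes 17.0% were called higher in this difference and 18.9% lower.

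Within the 11 MYT libraries the receptors varied in their own way. Titles carry a number, and for Itga3 the 5 libraries numbered 2000 or more had 475 to 880 CPM and the 6 numbered under 1000 had 138 to 403 CPM. The same libraries had 45.9 to 115 and 12.9 to 38.2 CPM of Itga2, and 636 to 772 and 383 to 622 CPM of Itgb1. Itgb3 was at 97.2 to 161 and 28.5 to 97.1 CPM, and the other 6 members overlapped. With CPM by raw library totals Itgb3 overlapped too, at 101 CPM in MYT replicate 5 against 105 CPM in replicate 2. Itgb1 then overlapped as well, at 639 CPM in MYT replicate 6 against 653 CPM in replicate 8. The share of all genes split in this way was not counted. This split was seen after the values were known and is not a group of the labels, so it has no test. The sources used here do not say what the numbers stand for.

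Over the 11 MYT libraries 9 pairs were compared by the correlation of log2 CPM. They were alpha and beta subunits that join into a receptor, and Fn1 with Itga5. Itga6 and Itgb4 had Pearson's r = -0.84 (permutation p = 0.0124, adjusted over the 9 pairs 0.0373) and Spearman's rho = -0.66 (permutation p = 0.0301, adjusted 0.0904). Without the 2 libraries farthest from the median of Itga6, r was -0.45, so the relation over the 11 libraries depends in part on those 2. Within the 6 libraries numbered under 1000 r was -0.96. MYT replicate 9, which is among both those 2 and those 6 libraries, had the highest Itga6 (503 CPM) and the lowest Itgb4 (175 CPM). Across all 32 libraries the same pair had r = 0.61, a value that mixes groups and is a description. Fn1 and Itga5 had r = 0.93 across the 32 libraries and 0.19 within MYT (permutation p = 0.569, adjusted 0.732; rho = 0.23, permutation p = 0.499; r = 0.53 without the 2 farthest libraries). Itga3 and Itga2 had r = 0.78 and 0.74 with Itgb1 (permutation p = 0.0039 and 0.00744, each adjusted 0.0335). Their rho was 0.75 and 0.78, each with an adjusted permutation p of 0.0442. For these genes the title numbers separate the libraries, so the pooled values include that split. Within the 6 libraries under 1000 r was 0.59 for Itga3 and 0.47 for Itga2. Itgb4 also differed with these numbers, with medians of 314 CPM under 1000 and 425 CPM at 2000 or more. Its pooled r with Itga6 includes that difference, and the permutation over all 11 libraries took no account of it. The other pairs, of Itga5 and Itgav with beta subunits and Itga6 with Itgb1, had adjusted permutation p of 0.156 or more. The genes were chosen with their levels known, so these p-values support nothing further.

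The genes most like each of 4 members were named by Pearson's r of log2 CPM over the 32 grouped libraries among 9902 expressed genes, and these libraries share their groups. For Fn1 they were Cd109 (r = 0.96), Slc12a4 (0.96) and Lamb1 (0.96), with 0.76, 0.77 and 0.69 within MYT. For Itga5 they were Slc12a4 (0.97), Snx9 (0.97) and Plau (0.96), with 0.46, 0.47 and 0.48 within MYT. For Itgb4 they were Fam83h (0.92), Urah (0.91) and Tuba4a (0.90), and for Itgb6 Tmc4 (0.96), Kctd1 (0.96) and Kdf1 (0.96). Within MYT these were 0.09, 0.50 and 0.68 for Itgb4 and 0.58, 0.12 and 0.18 for Itgb6, lower in each case than across all libraries.

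Gene positions are from GENCODE M21 on GRCm38. Fn1 lies on chromosome 1 (71585520 to 71653200, minus strand), Itga5 on 15 (103344286 to 103366763, minus) and Itgb1 on 8 (128685654 to 128733200, plus). Chromosome 2 carries Itgb6 (60598292 to 60722643, minus), Itga6 (71745616 to 71858416, plus) and Itgav (83724397 to 83806916, plus), and chromosome 11 carries Itga3 (95044474 to 95076801, minus), Itgb3 (104608000 to 104670476, plus) and Itgb4 (115974709 to 116008412, plus). Itga2 lies on chromosome 13 (114833081 to 114932100, minus). The exons of 3 members overlap a gene on the other strand: Fn1 with Apol7d over 2.50% of its joined exons, Itgav with Gm13684 over 5.90% and Itgb4 with B230344G16Rik over 7.66%. The sources used here do not say whether the counting used strand, so reads of these stretches cannot be told apart.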

How the data were processed

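RNA was extracted with Trizol from 33 mammary tumour samples and sequenced, per the labels' protocols. The submitters' processing notes name STAR 2.7.10a, HTSeq, edgeR and the build GRCm38. The kit, its strandedness and the annotation release are not given in the sources used here. The deposited table holds whole-number read counts per Ensembl gene, not normalized by the authors, and a deposited log2 CPM table was not used.

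Libraries were grouped by title and 32 of 33 entered a group. Replicates were numbered in accession order, so the numbers pair nothing. Over genes with 10 or more counts, all 90 pairs of libraries within groups differed beyond sampling noise, the closest pair with a chi-square of 16.1 per degree of freedom. CPM used TMM factors over the 32 libraries. Each comparison was fitted on its own groups by edgeR's quasi-likelihood test (version 4.0.16, R 4.3.3) after filterByExpr and TMM, and a call is a Benjamini-Hochberg adjusted p under 0.05 over all genes tested. The standard error comes from the F statistic, and fitted fold changes use a prior count of 0.125. The fits were tested on simulated data. Low counts limit the Itgb6 values, since this gene has few or no reads in M20_7, VEH_7 and VEH.

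The 10 members and all lists were chosen with earlier results of these data known. Named list genes are up to 3 a list with the smallest edgeR p among those called whose average log2 CPM was 1 or more. Npnt, Actn4, Lamb2, Lama4, Fermt1, Itgb8, Cd151 and Sdc4 in MYT against VEH and Epcam and Vim were named outside this rule, after their values were seen. A gene that the rule names in the difference between the sets is not reported. Genes like a member needed a mean log2 CPM of at least 3 (prior count 2). Alternatives were all genes with any count, the size factors of DESeq2, the DESeq2 test (1.42.0), limma voom (3.58.1), 1 fit over the 32 libraries, each library left out in turn and, for levels, raw library totals.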

Additional observations from a re-analysis of the deposited data

Results flagged for a closer look

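Fn1 in WT replicate 5 was at 1070 CPM, far from the other 4 WT libraries at 55.2 to 123 CPM. Of 40 sets of values of a member in a group of 4 or 5 libraries it was the 1 so far apart, where chance gives about 1 in 20, or 2.

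The log2 fold change in MYT against VEH differed from that in M20_7 against VEH_7, by the edgeR test of the difference, for Fn1 (-2.97), Itga5 (-3.51), Itgav (-0.79), Itgb1 (-0.88) and Itga6 (1.37).

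Itgb4 was at 347 CPM in the library with contradicting labels, above every VEH library (128 to 263 CPM) and within the MYT range (176 to 498 CPM).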

How the results depend on the processing

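No paired analysis was possible because replicates carry accession-order numbers that pair nothing. In SPON against WT 1 member was called, and 4 were called (Fn1, Itga5, Itgb1 and Itga6) in 1 fit over the 32 grouped libraries, in which 5472 genes were called instead of 1303. The count there ranged from 0 to 2 with 1 library left out. In the difference between the sets 5 members were called, and 3 (Itga5, Itgb1 and Itga6, without Fn1 and Itgav) in that joint fit, with 3501 genes called instead of 6151. The cause was not tested. In MYT against VEH 6 to 8 of 10 members were called under the alternatives, against 7, with Itgb4 lost in the joint fit and Itgb3 gained by DESeq2 and voom, and in M20_7 against VEH_7 0 under each. For all genes, M20_7 against VEH_7 gave 6 calls when low counts were kept and 55 by DESeq2, and SPON against WT 2648 with DESeq2. Of the members' fold changes under the alternatives, 721 moved by less than the spread between libraries of a group (1 SD of log2 CPM) and 7, all of Itgb6, by more, among them 4.36 in MYT against VEH and 3.47 in the difference with voom. Of the 50 neighbouring group ranges, 41 overlapped under each of the 3 scalings. Low counts limit Itgb6 in the vehicle groups.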

Other observations

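The library titled as vehicle and labelled with RP-6306 was left out of every comparison. Its Fn1 level was 9145 CPM, within the VEH range of 6650 to 18067 CPM, and Itga3 (275 CPM), Itga6 (116 CPM) and Itgb6 (0.110 CPM) were also within the VEH range. Itga5 (343 CPM), Itgav (237 CPM) and Itgb1 (836 CPM) lay between the ranges of MYT and VEH. Itgb3 (93.7 CPM) and Itga2 (26.2 CPM) were below every VEH library and within the MYT range. These values used factors over all 33 libraries and assign the sample to no group.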
